A study of Homo sapiens with 6 samples.

Results

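S100 genes encode small calcium-binding proteins, and 10 of them, S100P, S100A2, S100A4, S100A6, S100A8, S100A9, S100A10, S100A11, S100A14 and S100A16, were followed in prostate cancer cells made to overexpress miR-338-5p or miR-421. The members were chosen by name: every probe whose gene name on the array is one of the 10 was taken, which gave 11 probes, out of 43317 gene names on the array. S100P was singled out because its log2 ratio changed sign among the miR-338-5p arrays, so its ratios are given as a description and were not tested. Of the 10 genes, 7 were measured above background and are among the 15447 genes tested; S100A8, S100A9 and S100A14 were not well above background in any sample.

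RNA was compared on 6 Agilent 2-colour arrays, 3 for each miRNA. All RNA came from 22RV1, an established human prostate cancer line that the labels describe as SPINK1 positive. Stable lines carried a lentiviral vector, pLemiR-338-5p, pLemiR-421 or the control pLemiR-RFP, and all were grown with puromycin, so the controls too carry a vector and were kept under selection. Control RNA was labelled with Cy3 and RNA of the miRNA line with Cy5 on every array, without a dye swap. The arrays are replicates 1, 2 and 3 of miR-338-5p, and a sample named Pool with replicates 1 and 2 of miR-421. What was pooled, what the letter C in the other sample names means, and whether lines are clones or 1 control culture supplied every array is not stated, so an SD over 3 arrays may be technical. If 1 control RNA was shared, the spread between control cultures does not enter a test of a ratio. A log2 ratio here is log2 of Cy5 over Cy3, so a value above 0 is a higher signal in the miRNA line.

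S100 proteins are built around a pair of EF-hand loops that, in most members other than S100A10, hold calcium, and most work as dimers that change shape when calcium enters the cell and then grip partner proteins such as annexins, ezrin and non-muscle myosin. Some are also released from cells and bind receptors such as RAGE, encoded by AGER. Most of the genes lie in a cluster on the long arm of chromosome 1, while S100P lies alone on chromosome 4, and S100P is widely studied as a protein raised in epithelial cancers, prostate cancer among them.

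The overexpressed miRNAs are shown first because their seeds, the bases that lead pairing with a target, differ. Mature sequences are those of RefSeq (GRCh38.p14), 5′ to 3′, with bases 2 to 8 in capitals; hsa-miR-338-5p lies at chr17:81125923-81125944 and hsa-miR-421 at chrX:74218392-74218414, both on the minus strand.
miR-338-5p: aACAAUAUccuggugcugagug
miR-421: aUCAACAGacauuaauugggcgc
The DNA letters that pair with these seeds, ATATTGT and CTGTTGA, were searched in the transcript sense of all 58201 probe sequences. ATATTGT stood in 278 probes (0.478%) and in 0 of the 11 member probes. CTGTTGA stood in 325 probes (0.558%) and in 1 member probe, that of S100A2, at bases 21 to 27 of the probe, shown in capitals in a stretch of 30 bases.
S100A2: tgggcccaggaCTGTTGAtgcctttgagtt
A probe covers only 60 bases of a transcript, so a match or its lack describes these letters alone.

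The letters of the member probes were set beside those of the probes of other S100 genes. The longest run of letters that a member probe shared with the probe of another S100 gene was 8 to 10 bases of 60. Whole transcripts of the other genes were not searched, so this run cannot show that a probe tells the family apart. Whether a probe also binds RNA of another member was not tested. The probes of S100A6, which passed the test under miR-421, and of S100A11, whose probes differ in their call, are shown as the array file gives them. On hg19 the S100A6 probe lies at chr1:153507255-153507685, a span of 431 bases for 60 bases of probe, and the S100A11 probes lie end to end at chr1:152005219-152005278 and chr1:152005160-152005219, all on the minus strand.
S100A6: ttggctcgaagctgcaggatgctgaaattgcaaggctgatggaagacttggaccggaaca
S100A11, first probe: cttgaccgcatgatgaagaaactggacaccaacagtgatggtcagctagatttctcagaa
S100A11, second probe: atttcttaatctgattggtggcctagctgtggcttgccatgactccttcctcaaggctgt

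Before the members' values, 1 array has to be named. Log2 ratios over the 27509 probes kept after the background filter correlated at 0.478 to 0.613 among miR-338-5p arrays and at 0.637 to 0.823 among miR-421 arrays. Between the groups they correlated at 0.337 to 0.594, which overlaps the miR-338-5p range. Of the miR-338-5p arrays, replicate 2 had the lower correlations with its own group (0.523 and 0.478). Control (Cy3) signals had correlations of 0.993 to 0.999 over the 6 arrays. In Cy3, 47.3% to 47.9% of gene spots were well above background on the miR-338-5p arrays and 44.3% to 44.4% on the miR-421 arrays. In Cy5 they were 46.8% to 48.3% under miR-338-5p. Under miR-421 they were 47.8%, 41.9% and 47.5% (Pool, replicates 1 and 2). Control detection thus separated by group, and its part in the members' values was not tested. No member spot was saturated. The means of S100P and S100A10, which rest on miR-338-5p replicate 2, are given with and without it. The luminal prostate markers KLK3, KLK2, FOLH1, KRT8 and KRT18 were above background in both dyes on every array. Of 6 basal and squamous markers, 4 (KRT5, TP63, SPRR2A and IVL) were above it in neither dye on any array. The others, KRT14 and SPRR1B, were above it in Cy3 on some arrays but not on all.

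S100P, which binds ezrin and RAGE, was higher than control on all 3 miR-421 arrays and on 2 of 3 miR-338-5p arrays, and lower than control on the third of these. Its probe (NM_005980, hg19 chr4:6698819-6698878, plus strand) was well above background in both dyes on all 6 arrays. Under miR-338-5p the log2 ratio was 2.41 on replicate 1, -2.59 on replicate 2 and 3.0 on replicate 3. Under miR-421 it was 3.73 on the Pool array, 4.34 on replicate 1 and 3.60 on replicate 2. The groups did not overlap, as in 21.5% of genes, and 5 arrays lay above 0. As linear values, the miRNA line had 5.31-fold, 0.166-fold and 8.02-fold of the control signal under miR-338-5p (replicates 1, 2 and 3), and 13.3-fold, 20.3-fold and 12.1-fold under miR-421 (Pool, replicates 1 and 2).

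The means follow from those values. Under miR-421 the S100P mean log2 ratio was 3.89 ± 0.40 (SD, n = 3), the highest of the 15444 genes with a value in that comparison. Under miR-338-5p it was 0.94 ± 3.07 (SD, n = 3), so that the SD exceeded the mean. Without miR-338-5p replicate 2 the S100P mean was 2.71, without replicate 1 it was 0.21 and without replicate 3 it was -0.090. The miR-338-5p mean was 2.95 lower than the miR-421 mean on the log2 scale (-2.95), and 1.19 lower (-1.19) without miR-338-5p replicate 2. None of these S100P values has a test here.

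The 2 dyes show where the S100P range lies. The log2 level of the control RNA (Cy3, scaled between arrays) was 12.50, 12.87 and 12.29 on miR-338-5p replicates 1, 2 and 3, and 12.02, 11.94 and 12.30 on the miR-421 Pool array and replicates 1 and 2, a range of 0.93. The level in the miRNA line (Cy5) was 14.91, 10.28 and 15.29 on the same miR-338-5p arrays and 15.75, 16.29 and 15.90 on those of miR-421, a range of 6.01. On miR-338-5p replicate 2 the S100P control level was the highest of the 6 and the miRNA-line level the lowest. The unscaled spot brightness in Cy5 was 1190 on that array and 30079 to 75001 on the other 5, against 3576 to 8320 in Cy3. Ordered by unscaled Cy3 brightness, the arrays stood in the reverse of their order by Cy5, and the reason was not tested. The Cy3 means of both groups differed by 0.46, with overlapping values. The S100P range in Cy3 was the widest of the measured members, with 0.06 to 0.30 for the others.

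**Figure D1:**
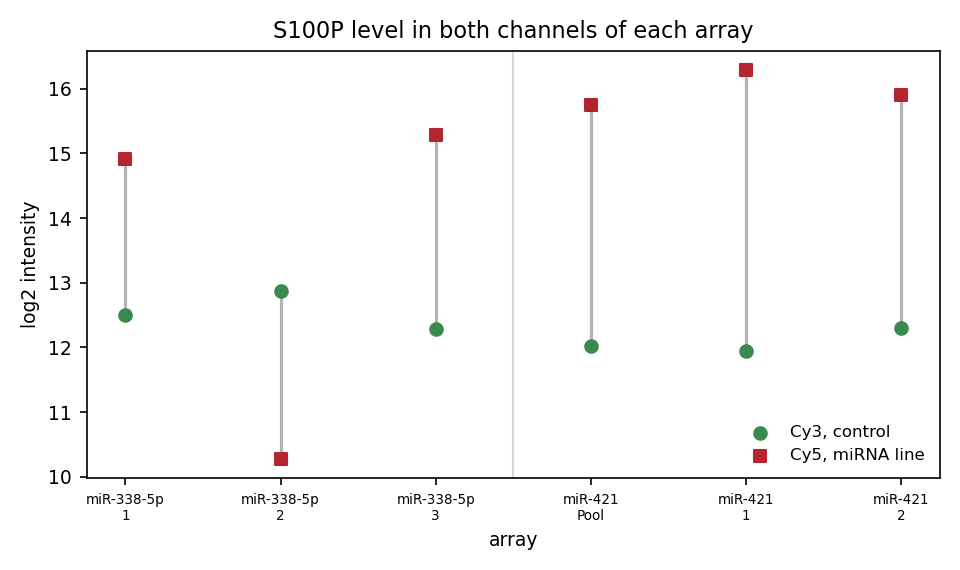
S100P on each of the 6 arrays: the log2 level in control RNA (Cy3) and in RNA of the miRNA line (Cy5), joined by a line. Cy3 ranged over 0.93 and Cy5 over 6.01, and the ratio was below 0 on miR-338-5p replicate 2 alone (-2.59).

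Among the 15440 genes with a sign on these arrays, 2486 (16.1%) had miR-338-5p replicate 2 opposite in sign to replicates 1 and 3. With a change of at least 2-fold asked of each of the 3 arrays, 8 of 15447 genes (0.0518%) remained: S100P, ALB, BASP1, C1orf226, DOCK8, GRM8, SLC45A3 and SMIM24, a set singled out after the values were seen. ALB, the gene of serum albumin, had log2 ratios of -2.89, 2.18 and -5.12 on miR-338-5p replicates 1, 2 and 3. SLC45A3, a prostate luminal gene, had -1.15, 1.37 and -2.70, and SMIM24 had -1.37, 3.04 and -1.43. On the miR-421 arrays ALB was -5.08, -4.46 and -4.35 (Pool, replicates 1 and 2) and SMIM24 was -1.53, -1.21 and -1.58, both below 0 as on miR-338-5p replicates 1 and 3, whereas SLC45A3 lay on both sides of 0 (-0.36, -1.77 and 0.08). BASP1 (1.1, -1.03 and 2.25 under miR-338-5p) and DOCK8 (1.1, -1.90 and 1.36) had the same signs as S100P on these 3 arrays; on the miR-421 arrays BASP1 was 0.94, 1.20 and 0.97 and DOCK8 was 1.61, -0.04 and 1.29.

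Of the other 9 members, 6 were measured and tested. By limma with Benjamini-Hochberg adjustment over all probes kept, 0 of the 6 passed 0.05 under miR-338-5p, where 10.6% of genes tested passed, 4.54% higher and 6.09% lower. At an unadjusted p under 0.05 there were 3 of 6 (S100A6, S100A10 and S100A11), where 31.9% of genes were. With a trended, robust variance 1 of 6 (S100A10) passed the adjusted threshold. Under miR-421, 2 of 6 passed, S100A6 and S100A2, both higher, where 26.1% of genes passed, 10.7% higher and 15.4% lower. In the difference of both miRNAs 0 of 6 passed, where 0.0389% of genes passed, 0.0194% higher and 0.0194% lower. At an unadjusted p under 0.05 there were 0 of 6 in the difference, against 16.8% of genes. Ratios were above 0 on all 3 arrays of miR-338-5p in 3 of the 7 measured members (S100A6, S100A10 and S100A11), as in 23.1% of genes, and on every miR-421 array in 4 of 7 (S100P, S100A2, S100A6 and S100A10), as in 28.3%. The median log2 ratio of the members other than S100P was 0.25 with miR-338-5p and 0.30 with miR-421, against -0.01 and -0.02 over all genes tested.

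**Figure D2:**
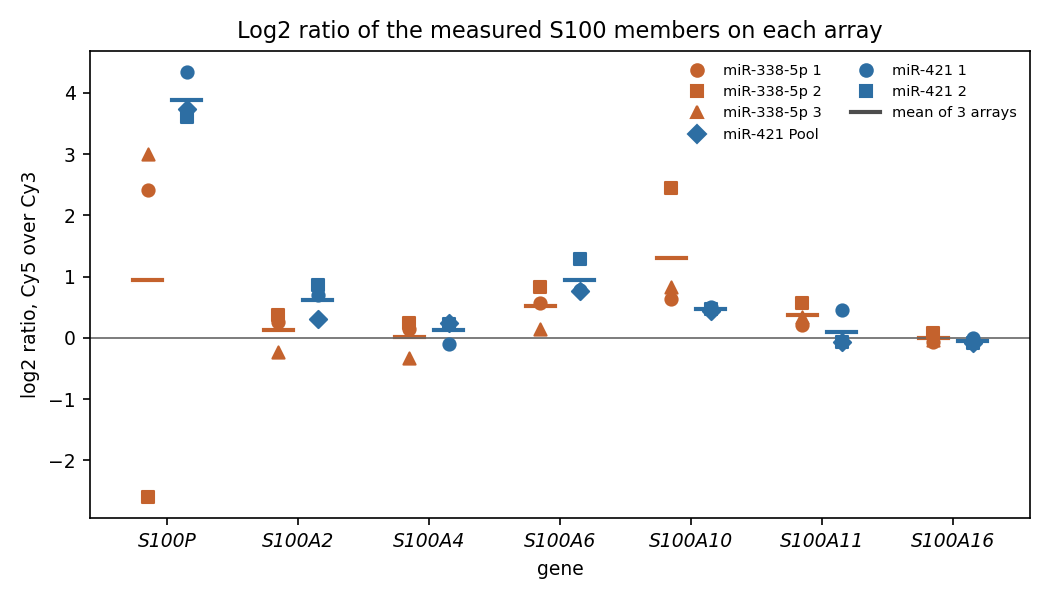
Log2 ratio of Cy5 over Cy3 for each measured S100 member on the 6 arrays, with the group means. S100A6 and S100A10 lay above 0 on all 6 arrays, and S100P spanned -2.59 to 4.34.

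S100A6 (calcyclin, a partner of the CACYBP protein; NM_014624) was higher in both miRNA lines on every array. Its log2 ratio was 0.58, 0.83 and 0.15 on miR-338-5p replicates 1, 2 and 3, and 0.76, 0.78 and 1.29 on the miR-421 Pool array and replicates 1 and 2. Only 1 miR-421 value stood above every miR-338-5p value, and the groups overlapped. Under miR-421 S100A6 rose by 0.94 ± 0.30 (SD, n = 3; limma adjusted p 0.014), 1.92-fold. With miR-338-5p the mean was 0.52 (limma adjusted p 0.097), and the difference of both means was -0.42 (limma adjusted p 0.46). The miR-421 call did not hold without miR-421 replicate 2 (0.77, limma adjusted p 0.075). The S100A6 control level itself was lower on the miR-421 arrays, 11.51 to 11.60 against 11.77 to 11.82 in log2 Cy3, without overlap (exact permutation test, two-sided, p = 0.1, the smallest that 3 arrays against 3 can give). The part of that level in the ratio was not tested. How many genes of the whole array had such a gap in Cy3 was not counted, so it may not be particular to S100A6.

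S100A2, a mainly nuclear member of epithelial cells (NM_005978, hg19 chr1:153533831-153533890, minus strand), is the member whose probe holds the letters that pair with the miR-421 seed. Its log2 ratio was 0.25, 0.38 and -0.23 on miR-338-5p replicates 1, 2 and 3, and 0.31, 0.70 and 0.87 on the miR-421 Pool array and replicates 1 and 2. All 3 miR-421 values were above 0, and the Pool value lay within the miR-338-5p range. Under miR-421 S100A2 rose by 0.63 ± 0.29 (SD, n = 3; limma adjusted p 0.036), 1.54-fold. The mean under miR-338-5p was 0.13 (limma adjusted p 0.64), and the difference was -0.50 (limma adjusted p 0.39). The spots were dim, with a Cy5 brightness of 50.6 to 149, and the size depended on the background correction: it was 1.17 after plain subtraction of the background and 1.29 by the ratio of the image software. The S100A2 call held in 11 of 18 alternatives (limma adjusted p 0.0133 to 0.161). It did not hold without miR-338-5p replicate 1 (0.061), miR-421 replicate 1 (0.12) or miR-421 replicate 2 (0.16), as limma adjusted p.

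S100A10, the partner of annexin A2 in a complex that gathers plasminogen at the cell surface (NM_002966, hg19 chr1:151955420-151955479, minus strand), was the other member above 0 on all 6 arrays, as 13% of genes tested were. Its log2 ratio was 0.63, 2.45 and 0.83 on miR-338-5p replicates 1, 2 and 3, and 0.43, 0.51 and 0.47 on the miR-421 Pool array and replicates 1 and 2. The groups did not overlap, as in 21.5% of genes, and miR-338-5p replicate 2 lay far above the other 5 arrays. On that array the miRNA line had 548% of the control signal, against 135% to 178% elsewhere. The control level of S100A10 lay between 11.06 and 11.18 in log2 Cy3 on all arrays, so the range was in Cy5 (11.49 to 13.51).

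The S100A10 mean was 1.31 ± 1.00 (SD, n = 3) in the miR-338-5p line and 0.47 ± 0.04 in the miR-421 line, and neither passed (limma adjusted p 0.066 and 0.35). The difference was 0.83 (limma adjusted p 0.50), and 0.26 without miR-338-5p replicate 2 (limma adjusted p 0.43). Without miR-338-5p replicate 2 the miR-338-5p mean was 0.73 and passed (limma adjusted p 0.030), and the miR-421 mean of 0.47 passed as well (limma adjusted p 0.013), since both groups share 1 estimate of the spread. On miR-338-5p replicate 2, S100A10 was thus at its highest ratio and S100P at its only ratio below 0.

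**Figure D3:**
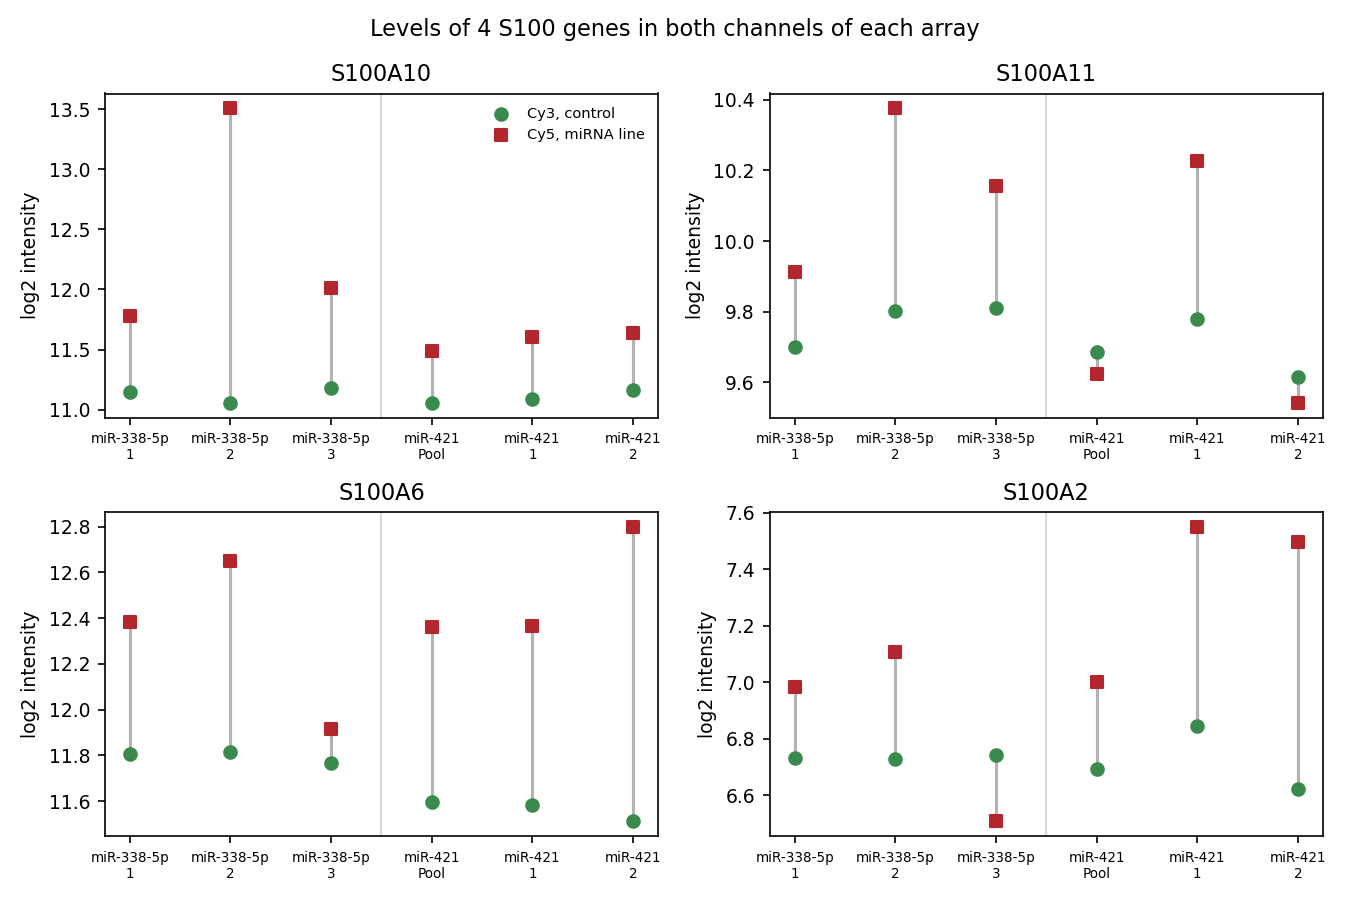
Log2 levels in control RNA (Cy3) and in RNA of the miRNA line (Cy5) on each array for S100A10, S100A11, S100A6 and S100A2. Levels of different genes are not comparable; within S100A10 the Cy5 level on miR-338-5p replicate 2 reached 13.51, against 11.49 to 12.01 on the other arrays.

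S100A11, a partner of annexin A1 (NM_005620), had a pair of probes. The brighter probe gave log2 ratios of 0.21, 0.57 and 0.34 on miR-338-5p replicates 1, 2 and 3 and -0.06, 0.45 and -0.07 on the miR-421 Pool array and replicates 1 and 2. The other probe gave 0.50, 0.81 and 0.56, then 0.05, 0.52 and 0.06, in the same order. Both probes had ratios over 0 on every miR-338-5p array, and on both the miR-421 replicate 1 value stood above the other miR-421 values. The brighter probe had a mean of 0.38 under miR-338-5p (limma adjusted p 0.12) and the other of 0.62, which passed (limma adjusted p 0.031). Under miR-421 the means were 0.10 and 0.21 (limma adjusted p 0.59 and 0.24). By the rule that the brighter probe stands for a gene, S100A11 was counted as not past the threshold. The brighter probe passed without miR-421 replicate 1 (limma adjusted p 0.042).

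S100A4, known from metastasis research as a binder of non-muscle myosin (NM_002961, hg19 chr1:153516198-153516257, minus strand), had log2 ratios on both sides of 0 in both groups. They were 0.15, 0.24 and -0.32 on miR-338-5p replicates 1, 2 and 3, and 0.24, -0.09 and 0.23 on the miR-421 Pool array and replicates 1 and 2. The means were 0.02 ± 0.30 and 0.13 ± 0.19 (SD, n = 3 each), with limma adjusted p of 0.93 and 0.52. The S100A4 spots were dim, with a Cy5 brightness of 33.5 to 77.5, and the values depended on the processing. By the ratio of the image software they were 0.40, 0.60 and -0.83 under miR-338-5p. Under miR-421 that ratio gave 0.67, 0.06 and 0.63, all above 0. S100A16, an epithelial member (NM_080388, hg19 chr1:153579675-153579734, minus strand), lay between -0.09 and 0.08 on all arrays, with means of -0.01 and -0.05 (limma adjusted p 0.96 and 0.52). S100A16 was well above background in Cy3 on all 6 arrays and in Cy5 on 4, and its spots were close to background. By the ratio of the image software S100A16 spread from -0.69 to 0.78, again on both sides of 0.

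S100A8 and S100A9, which pair as calprotectin in neutrophils and monocytes, stayed at background in both dyes, with 0 of 6 arrays well above it. So did S100A14, an epithelial member. On hg19 the S100A8 probe lies at chr1:153362548-153362607 and that of S100A14 at chr1:153587006-153587065, both on the minus strand, and that of S100A9 at chr1:153330874-153333143 on the plus strand. These 3 genes have no fold change here. Of the myeloid markers on the array (5 of 6 listed), PTPRC, CD14, FCN1 and CSF3R were above background in both dyes on every array. The remaining marker was above it in Cy5 on every array and in Cy3 on some. The spot brightness summed over all 5 was 252 to 620 in Cy3, 207 to 249 in the Cy5 of miR-338-5p and 313 to 843 in that of miR-421. Of the fibroblast markers, COL1A1 and DCN were above background in Cy3 on every array, PDGFRB on some and COL1A2 on none. The part of either marker list in the members' values was not tested.

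**Figure D4:**
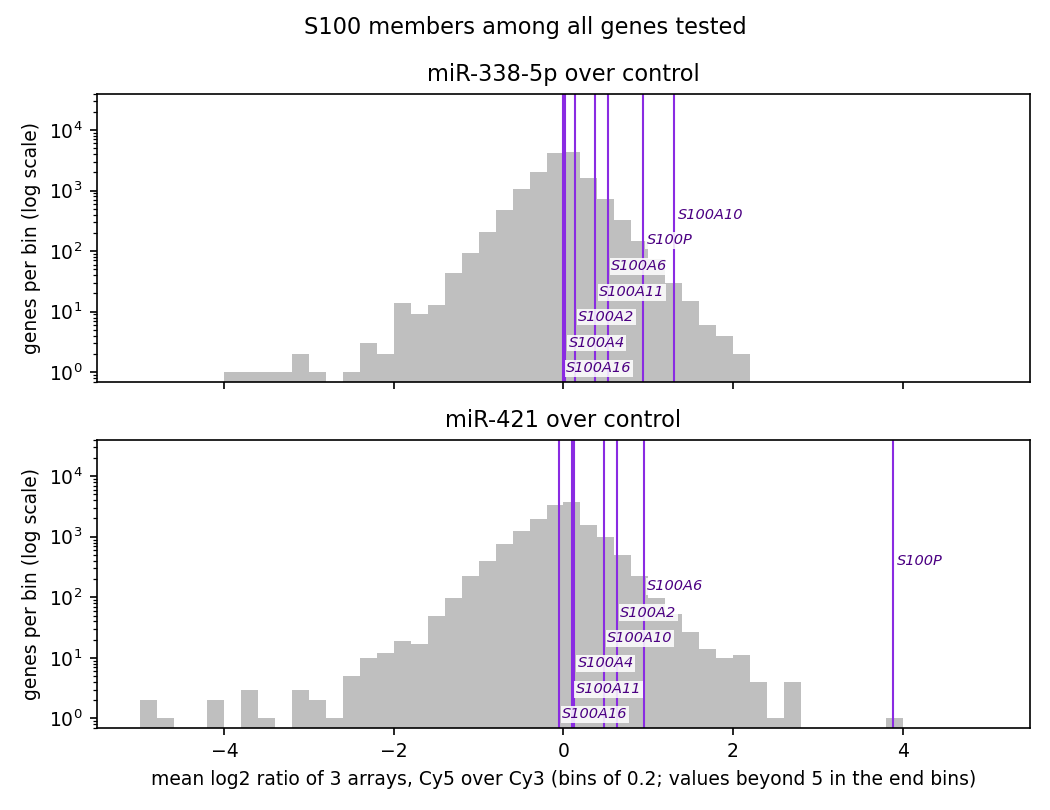
Mean log2 ratio over 3 arrays for all genes tested (grey, genes per bin on a log axis) with the 7 measured S100 members as lines, in separate panels for miR-338-5p and miR-421. S100P stood at the upper end under miR-421 (3.89), and the other 6 members lay between -0.05 and 0.94 there.

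Few other family members could be measured. Of 11 further S100 genes on the array (such as S100A1, S100B and S100G), 2 were tested, S100A3 and S100A13, and by limma 0 of 2 passed in any of the 3 comparisons, with 0 at an unadjusted p under 0.05. S100A13, which takes part in the release of FGF1, had log2 ratios of -0.31, 0.59 and -0.41 on miR-338-5p replicates 1, 2 and 3 and -0.34, -0.29 and -0.31 on the miR-421 arrays. It was above 0 on miR-338-5p replicate 2 alone.

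The proteins that S100 proteins bind were taken as a list of 22 genes, 18 of which were tested. Under miR-338-5p 0 of 18 passed by limma (5 at an unadjusted p under 0.05, against 31.9% of all genes), and their median log2 ratio was -0.10. Under miR-421 4 of 18 passed, 2 higher and 2 lower, with a median of 0.11. In the difference 0 passed (5 at an unadjusted p under 0.05, against 16.8% of all genes). The share under miR-421, 4 of 18, lies near the 26.1% of all genes. ANXA1, MYH9, PPP5C and STIP1 had all ratios of 1 miRNA below 0 and all of the other above 0, as 3.81% of genes did. The Cy5 signal of ANXA1 was not well above background on any miR-421 array.

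BSG, which encodes basigin, a receptor for S100A9, had log2 ratios of 0.41, 0.82 and 0.92 on the miR-421 Pool array and replicates 1 and 2, and 0.08, -0.24 and 0.01 under miR-338-5p. The groups did not overlap, and BSG rose under miR-421 by 0.72 ± 0.27 (SD, n = 3; limma adjusted p 0.013), which did not pass without miR-421 replicate 2 (0.076). CACYBP, whose protein binds S100A6 and helps a ubiquitin ligase act on beta-catenin, had -0.63, -0.96 and -0.63 under miR-421 and -0.33, -0.27 and -0.13 under miR-338-5p. CACYBP was below 0 on all 6 arrays and fell under miR-421 by 0.74 (limma adjusted p 0.0063), while S100A6 rose there; its other probes had means of -0.30 and -0.61 (limma adjusted p 0.021 and 0.0083).

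The other 2 calls rest on 1 probe each. S100PBP, which encodes a binder of S100P, had -0.38, -1.35 and -0.65 on the miR-421 Pool array and replicates 1 and 2, a mean of -0.79 (limma adjusted p 0.045), whereas its other probe had a mean of 0.13 (limma adjusted p 0.18). STIP1, the Hsp70 and Hsp90 organiser, had 0.43, 0.13 and 0.54, a mean of 0.37 (limma adjusted p 0.033), against 0.10 (limma adjusted p 0.54) for its other probe. Each of the S100PBP and STIP1 calls held in 4 of 18 alternatives. With any 1 of the 3 miR-338-5p arrays left out, neither passed: S100PBP had limma adjusted p values of 0.052, 0.064 and 0.064 without replicates 1, 2 and 3, and STIP1 had 0.059, 0.050 and 0.055. Of miR-421 arrays, S100PBP did not pass without the Pool (0.056), replicate 1 (0.13) or replicate 2 (0.14), and STIP1 not without the Pool (0.12) or replicate 2 (0.15), as limma adjusted p.

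EZR, AGER and ANXA2 did not pass. EZR, which encodes ezrin, had 0.14, -0.45 and 0.31 on miR-338-5p replicates 1, 2 and 3 and 0.28, 0.49 and 0.67 on the miR-421 arrays (mean 0.48, limma adjusted p 0.072). EZR was below 0 on miR-338-5p replicate 2 alone. On that array 16.1% of all genes were opposite in sign to replicates 1 and 3. ANXA5, which did not pass either, had the same form (0.16, -0.43 and 0.19 under miR-338-5p). AGER had means of -0.23 and -0.25 (limma adjusted p 0.15 and 0.077). ANXA2, the annexin that S100A10 joins, had means of 0.03 and -0.09 (limma adjusted p 0.90 and 0.65).

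Genes beside the members were measured on the same arrays. Of the genes next to S100P on chromosome 4, 7 were tested, with means from -0.48 to 0.30 (miR-338-5p) and from -0.56 to 0.27 (miR-421). BLOC1S4, which encodes a subunit of a complex that forms lysosome-related organelles, was the 1 gene of these 7 that passed, and it rose in both (0.29 and 0.27, limma adjusted p 0.043 and 0.033), where 10.6% and 26.1% of all genes passed. Of 12 genes on the array inside or beside the chromosome 1 cluster, 10 were tested, with medians of 0.09 and -0.05. CHTOP (0.67, limma adjusted p 0.037) and LOR (0.26, 0.040) passed under miR-338-5p, SLC27A3 (0.40, 0.027) and DENND4B (-0.36, 0.032) under miR-421, 2 of 10 in each, against the same 10.6% and 26.1%.

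The genes whose log2 ratios were most like those of S100P were ranked by Pearson correlation over the 6 arrays, among 132 genes whose SD over these arrays was at least 1. They were MMP24 (r = 0.97), TMBIM1 (0.96), DISP2 (0.94), FOXRED1 (0.91) and TMEM45B (0.83). The most opposite were NUDT4 (-0.99) and PCDH20, CHMP1B, GRM8 and ETS2 (each -0.98). These arrays share their control labelling, and all 5 like genes had their lowest value, and all 5 opposite genes their highest, on miR-338-5p replicate 2. The ranking thus rests largely on that array and on the S100P ratios for which the gene was singled out. It was not repeated without that array. MMP24 was -2.23 on miR-338-5p replicate 2 and 0.19 to 0.89 on the other 5 arrays. PCDH20 was 3.83 on that array and -0.59 to -0.11 elsewhere. TMEM45B differed from that form, with 1.06, -0.80 and 0.04 on miR-338-5p replicates 1, 2 and 3 and 1.63, 2.73 and 1.97 on the miR-421 arrays.

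**Figure D5:**
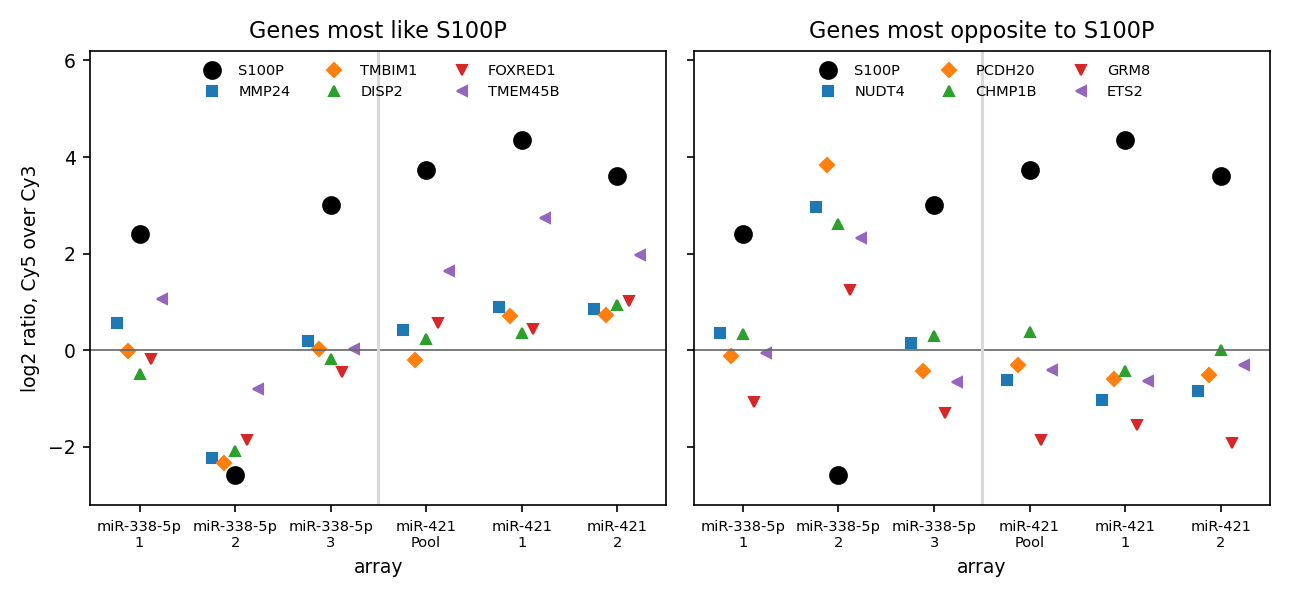
Log2 ratios on the 6 arrays of S100P with the 5 genes most like it (left) and the 5 most opposite to it (right). Most of the 10 genes stood apart on miR-338-5p replicate 2, where MMP24 was at -2.23 and PCDH20 at 3.83.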

How the data were processed

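The authors read the arrays with Feature Extraction 11.5.1.1, per the file headers, and the deposited intensity values are the mean spot brightness and the median local background in each dye, not normalized; probe coordinates are on hg19, per the file headers. The log10 ratio deposited beside them (Cy5 over Cy3) is that software's own, after its dye normalization per the file headers. The authors' deposited series table holds log2 ratios of Cy5 over Cy3 that differ from it by a median of at most 0.00146; its column medians were 0.034, 0.019 and -0.058 for miR-338-5p replicates 1, 2 and 3 and -0.16, 0.011 and -0.12 for the miR-421 Pool and replicates 1 and 2, and how it was centred is not given in the sources used here. Both served as alternatives. Per the labels, RNA was poly(A)-tailed before oligo-dT labelling, so RNAs without a natural tail can contribute signal.

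From the spot intensities, background was corrected by normexp (offset 50) and ratios normalized by loess in each array, with control spots given no weight and outlier spots left out; spots of a probe were averaged. Levels per dye were scaled by Aquantile. Of 58201 probes, 27509 were kept, those flagged well above background on 3 or more of the 6 arrays in 1 dye or the other. All 6 arrays entered 1 limma fit (limma 3.58.1, R 4.3.3; prior df 2.05), with each group mean against 0 and the difference, two-sided, Benjamini-Hochberg adjusted over all probes kept, at 0.05. With no dye swap, a probe's dye bias stays in each comparison with control. It cancels in the difference only as far as the bias and the control are the same on all arrays, which was not tested. A gene is represented by its brightest probe (mean log2 intensity over dyes and arrays). Named genes are all members, and listed family and partner genes that pass; further partners and neighbours were named after their values were seen. The members and lists were chosen with earlier results of these data known. On simulated data the fit was tested with 200 probes shifted per line. The noise was normal and independent between arrays, so this run does not cover a shared control, dye bias or an outlying array. The 11 member accessions all matched their RefSeq symbol (GRCh38.p14, names only). The number of arrays limits the precision.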

Additional observations from a re-analysis of the deposited data

Results flagged for a closer look

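Among the binding partners, 4 genes had every array of one miRNA on one side of 0 and every array of the other on the opposite side, as 3.81% of genes tested did; limma's test of the difference did not pass for any of them. ANXA1, a partner of S100A11, was 0.07 to 1.03 under miR-338-5p and -0.49 to -0.24 under miR-421, a difference of 0.83 (limma adjusted p 0.25). Its Cy5 signal was not well above background on any miR-421 array, so the ratios there are only a bound. The size of the ANXA1 difference depended on the processing, from 0.53 to 3.70 over 17 alternatives. STIP1 differed by -0.59 (limma adjusted p 0.15), with -0.25 to -0.17 under miR-338-5p and 0.13 to 0.54 under miR-421. MYH9, the non-muscle myosin heavy chain that S100A4 binds, differed by -0.39 (limma adjusted p 0.26). PPP5C, a phosphatase that S100 proteins can activate, differed by -0.20 (limma adjusted p 0.38). Groups of 3 arrays were too small to test single arrays as outliers.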

How the results depend on the processing

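Members past the threshold other than S100P numbered 0 under miR-338-5p, and 1 (S100A10) with no background correction or with a trended, robust variance; leaving out 1 array gave 0 to 1 (1 without miR-338-5p replicate 2, S100A10, and 1 without miR-421 replicate 1, S100A11). Under miR-421 they numbered 2, but 1 (S100A6) with median centring or without the filter, 0 with the replicate number as a block, and 0 to 3 leaving out 1 array (3 without miR-338-5p replicate 2, 1 if replicate 1 of either miRNA was dropped, and 0 if miR-421 replicate 2 was). The difference had 0 in all 17 alternatives. The S100P mean under miR-338-5p, 0.94, turned to -0.090 with the replicate block and with the arrays numbered 1 and 2 alone without a block, an alternative chosen after seeing the data, and lay between -0.090 and 2.71 over the fits that left out 1 array. The S100P mean for miR-421 was 3.67 to 4.18 in 18 alternatives, and the difference -4.06 to -1.19. Same-numbered arrays did not deviate together (-0.14 and -0.21 for numbers 1 and 2), so the numbers were not taken as pairs. The block fit used 4 arrays and called 0 of all probes kept, and the same arrays without the block called 1, 1778 and 0. Over all probes kept, the calls under miR-338-5p, miR-421 and the difference were 2463, 5951 and 13. They became 1284, 3878 and 2 with median centring, and 1095, 5336 and 2 with the image software's ratio. In the authors' table, which holds gene names, they were 986, 4266 and 6. With each group's arrays alone they were 214 and 3983. Centring moved the median of all probes kept by under 0.1. Probes near background, S100A2, S100A4 and S100A16 among the members, have the least exact sizes.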
